A study of Mus musculus with 15 samples.

Results

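The DNAJA and DNAJB genes encode Hsp40 cochaperones, which carry a J-domain and deliver unfolded clients to Hsp70. Here 9 genes of the family were followed in mouse skeletal muscle: Dnaja1, Dnaja2, Dnaja3, Dnaja4, Dnajb1, Dnajb2, Dnajb4, Dnajb5 and Dnajb6. Members were taken by name, as every probe set whose only listed symbol is 1 of these 9. This gave 10 probe sets for 9 of the 19938 genes on the array, since Dnaja1 has 2. The members were chosen by results already known from these arrays: Dnaja4 had passed the threshold for calorie restriction (CR) in Sirt3 knockout mice. The log2 differences of that comparison are therefore a description and support nothing.

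RNA came from the gastrocnemius, a calf muscle, of male C57BL/6 mice aged 12 months, with 1 mouse on each of 15 Affymetrix arrays. The groups were wildtype mice on the control diet (3 arrays), wildtype mice under CR (4), Sirt3 knockout mice on the control diet (4) and Sirt3 knockout mice under CR (4). The degree and length of CR, the composition of the diets and the way Sirt3 was deleted are not stated in the labels. Values are deposited log2 RMA intensities, and a difference of 1 is a doubling of signal. Levels of different probe sets were not set against each other.

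J-domain proteins bind a client, hand it to Hsp70 and trigger ATP hydrolysis by Hsp70, which locks the client in place. The class A proteins (DNAJA) carry a zinc finger beside the J-domain and a glycine-rich stretch, and the class B proteins (DNAJB) lack the zinc finger. Several of these genes are targets of the heat shock factor HSF1, and in human muscle mutations of DNAJB4 and DNAJB6 cause myopathies. In whole muscle, fewer cells of a type and less RNA per cell cannot be told apart.

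Some facts of the whole series touch the results below. Sirt3, which encodes a mitochondrial deacetylase, read 6.38 to 6.68 on the 7 wildtype arrays and 4.94 to 6.19 on the 8 knockout arrays, without overlap. The labels do not say whether its probes lie inside the deleted part. The 10 skeletal muscle markers were all bright, with means from 11.62 to 13.33. The 24 male germ cell markers all had a probe set and 16 of them passed the filter on dim signal. As a mean difference from the median array they lay at 3.65 on replicate 3 of wildtype control and at 3.00 on replicate 1 of knockout control, and between -0.36 and 0.57 on the other 13 arrays. Their range was -0.07 to 3.65 in wildtype control, -0.36 to 0.53 in wildtype CR, -0.21 to 3.00 in knockout control and -0.35 to 0.37 in knockout CR. The pancreatic acinar markers (9 of 11 with a probe set) lay at 7.11 on wildtype control replicate 2, and the liver markers (13 of 15) at 2.52 on wildtype CR replicate 4. These 4 arrays, the only ones over 2 in any of these 3 lists, were left out in alternative fits given beside the results. Below that limit, the liver markers lay at 1.38 on wildtype control replicate 1 and at 1.49 on knockout control replicate 2. Wildtype control replicate 1, the only wildtype control array kept without the 4, also had pancreatic acinar markers at 0.58. That fit is thus not free of signal from other tissues.

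Promoter sequence is shown for the members with a match to 2 units of the heat shock element. The search ran from 250 bases before to 50 bases after an annotated start. Dnajb1, which had the widest spread between arrays, is shown too. Sequences are from RefSeq, build GRCm38.p6, read 5′ to 3′ on the gene's strand over the 150 bases before the start. The element was searched as 2 inverted GAA units 2 bases apart, GAANNTTC or TTCNNGAA, each of which reads the same on both strands. Capitals mark matches, and overlapping matches run together.
Dnaja1 (chr4:40722318-40722467, plus strand, the first of its annotated starts): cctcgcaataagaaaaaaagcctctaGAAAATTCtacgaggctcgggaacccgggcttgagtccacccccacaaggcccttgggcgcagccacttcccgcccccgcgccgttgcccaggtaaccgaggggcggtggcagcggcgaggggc
Dnaja4 (chr9:54699409-54699558, plus strand, the more downstream of its annotated starts): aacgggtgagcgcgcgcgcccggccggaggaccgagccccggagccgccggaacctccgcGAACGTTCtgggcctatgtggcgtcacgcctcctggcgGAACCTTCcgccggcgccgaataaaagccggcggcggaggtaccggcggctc
Dnajb4 (chr3:152193846-152193995, minus strand, the more downstream of its annotated starts): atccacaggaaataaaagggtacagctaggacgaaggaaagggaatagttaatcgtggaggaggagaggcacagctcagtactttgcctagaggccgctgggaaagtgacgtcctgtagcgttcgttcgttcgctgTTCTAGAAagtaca
Dnajb6 (chr5:29735748-29735897, plus strand, the first of its annotated starts): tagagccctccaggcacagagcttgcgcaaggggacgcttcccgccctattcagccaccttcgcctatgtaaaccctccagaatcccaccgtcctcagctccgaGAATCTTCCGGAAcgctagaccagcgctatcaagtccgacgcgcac
Dnajb1 (chr8:83608025-83608174, plus strand, the first of its annotated starts): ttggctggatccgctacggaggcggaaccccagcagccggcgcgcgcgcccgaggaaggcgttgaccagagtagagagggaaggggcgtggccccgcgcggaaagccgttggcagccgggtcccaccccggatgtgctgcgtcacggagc

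The element of 2 units was found before a start of 4 of the 9 members, and in 5 of their 18 windows. The Dnajb6 windows overlap, so the same matched letters are counted in each. Over all genes of the same table, 17.0% had it in at least 1 window, and 15.1% of the 32851 windows held it. The Dnaja1 match began 124 bases before the start, the Dnaja4 matches 90 and 52 bases before, and the Dnajb4 match 14 bases before. In Dnajb6 2 matches overlapped, at 46 and 41 bases before the start, and formed an element of 3 units, GAANNTTCNNGAA or its reverse complement TTCNNGAANNTTC, which 0.603% of all windows held. No window of the other 5 members held either element, and among the members only Dnajb6 held the element of 3 units. A match is a string of letters, and binding was not measured.

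Dnaja4, a cytosolic class A cochaperone, was the member whose earlier result led to the choice of the family. Its log2 values were 8.36, 8.70 and 8.84 in wildtype control, and 8.37, 8.03, 8.47 and 8.26 in wildtype CR muscle. In knockout muscle they were 8.92, 8.59, 8.34 and 8.34 on the control diet, and 7.48, 7.45, 7.72 and 7.61 under CR. The 4 knockout CR arrays lay below all 11 others, of which the lowest was 8.03, while the other 3 groups overlapped. The fitted difference under CR was -0.98 (SE 0.14) in knockout mice, 0.506 of the control signal. Its limma adjusted p over 12056 genes, 0.0174, is among the values by which the family was chosen. It did not pass with renewed quantile normalization (difference -0.94, adjusted p = 0.0570). It also did not pass without knockout control replicate 2 (adjusted p = 0.0790) or without knockout CR replicate 1, 2 or 4 (adjusted p = 0.0960, 0.0904 and 0.0592). In wildtype mice the difference was -0.35 (SE 0.15, limma adjusted p = 0.335), and it was -0.25 when both germ cell arrays were left out and -0.08 when all 4 arrays named above were.

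Dnajb4, a class B cochaperone whose loss in human causes a myopathy, had lower arrays under CR in each genotype, without passing the test in either. Its values were 9.50, 9.81 and 10.09 in wildtype control and 8.58, 8.66, 9.35 and 9.26 in wildtype CR muscle. In knockout muscle they were 9.14, 9.20, 9.54 and 9.26 on the control diet and 8.42, 8.23, 8.44 and 8.57 under CR. The diets did not overlap in either genotype, and the wildtype CR arrays fell into a low pair (replicates 1 and 2) and a high pair. The difference was -0.84 (SE 0.19, 95% interval -1.24 to -0.43) in wildtype mice. In knockout mice it was -0.86, with an SE of 0.17 and a limma adjusted p of 0.0968. For wildtype mice the limma adjusted p was 0.117, and 0.0801 to 0.587 over the settings tried besides leaving out 1 array. The wildtype difference was -0.69 with both germ cell arrays left out and -0.63 with the 4 left out. The latter fit holds a single wildtype control array, whose spread is taken from the other groups.

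Dnajb1, the canonical heat-inducible Hsp40, spread most. Its values were 6.32, 8.17 and 8.39 in wildtype control muscle, a range of 2.07 within 3 mice. They were 5.88, 5.86, 7.45 and 6.32 in wildtype CR, 6.35, 7.36, 6.56 and 6.14 in knockout control, and 5.57, 5.60, 5.43 and 5.51 in knockout CR muscle. The wildtype groups overlapped, and the knockout CR arrays spanned only 0.169 and lay below all others, close to the filter value of 5.32. The difference under CR was -1.25 (SE 0.46, limma adjusted p = 0.271) in wildtype mice and -1.07 (SE 0.43) in knockout mice. In wildtype mice it was -0.86 with both germ cell arrays left out and 0.08 with the 4 left out.

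Dnaja1, a cytosolic class A cochaperone, was represented by the brighter of its 2 probe sets. The brighter set read 7.50, 8.25 and 8.95 in wildtype control, 7.35, 7.71, 8.07 and 7.59 in wildtype CR, 7.63, 8.12, 7.83 and 7.69 in knockout control, and 6.94, 6.89, 6.99 and 6.80 in knockout CR muscle. The knockout CR arrays again lay below the other 11. The difference under CR was -0.56 (SE 0.25, limma adjusted p = 0.363) in wildtype mice, and -0.20 and 0.21 without the 2 and without the 4 arrays. In knockout mice it was -0.91 (SE 0.23). The dimmer probe set, with group means of 6.29, 5.75, 5.88 and 5.62 in the same order, gave a like difference in wildtype mice, -0.54 (SE 0.24), but only -0.25 (SE 0.22) in knockout mice, where its arrays overlapped. With both sets averaged, the knockout difference was -0.58. RefSeq lists a pseudogene, Dnaja1-ps, and probe positions were not used here, so both sets are reported as uncertain.

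Dnajb2, a class B protein that links Hsp70 clients to the proteasome through ubiquitin-interacting motifs, moved least of these 5. It read 7.06, 7.28 and 7.53 in wildtype control, 6.99, 7.13, 7.22 and 7.01 in wildtype CR, 7.42, 7.15, 7.14 and 7.14 in knockout control, and 6.98, 6.76, 6.98 and 7.04 in knockout CR muscle. The wildtype groups overlapped and the knockout groups did not, the highest CR value being 7.04 and the lowest control value 7.14. Under CR it differed by -0.20 in wildtype mice (SE 0.11, limma adjusted p = 0.446). The knockout difference was -0.27 (SE 0.10). The wildtype value was 0.06 without the 4 arrays. The knockout difference was -0.20 without knockout control replicate 1, the germ cell array of that group, which read 7.42.

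**Figure D1:**
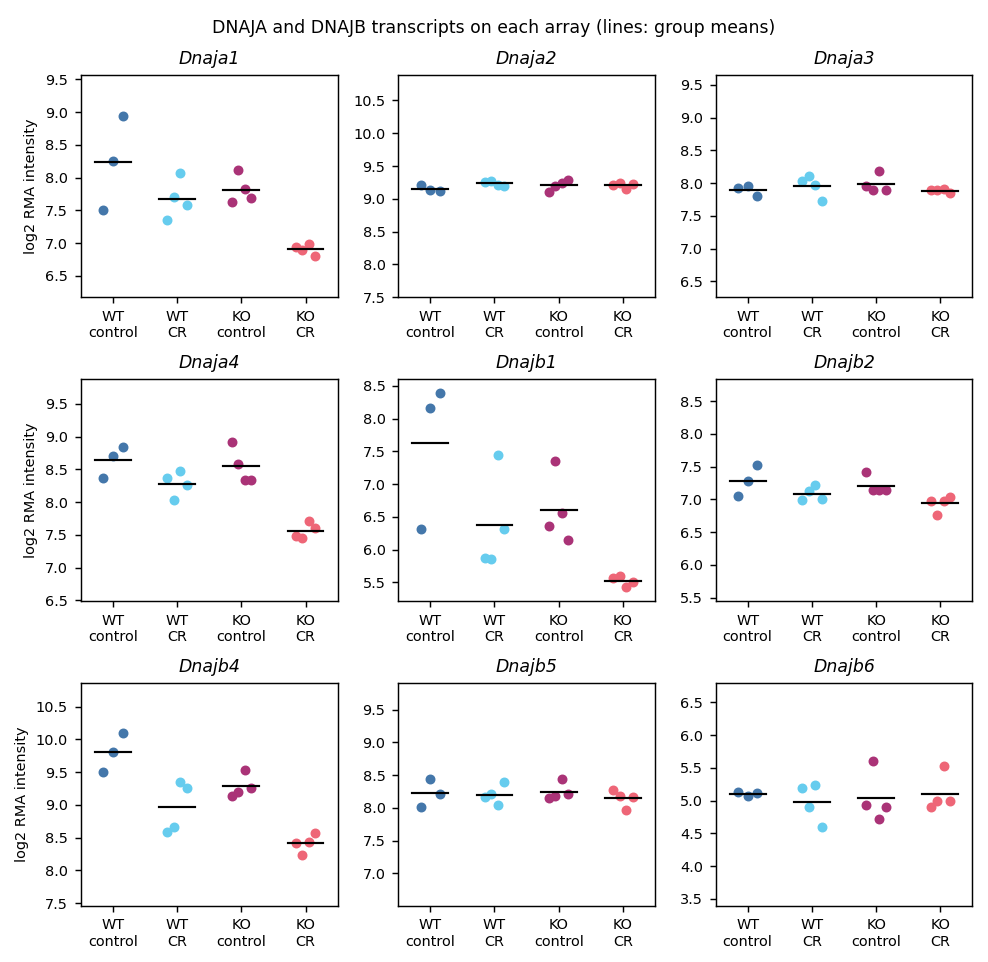
Log2 RMA intensity (vertical axis, the same span in every panel) of the probe set representing each of the 9 members, by group (WT wildtype, KO Sirt3 knockout), with 1 point per array and a line at the group mean. In the panels of Dnaja1, Dnaja4, Dnajb1 and Dnajb4 the 4 knockout CR points lie below the other 11, while Dnaja2, Dnaja3, Dnajb5 and Dnajb6 overlap in all groups.

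The other members differed little between the groups. Dnaja2, a constitutive cytosolic cochaperone, had group means of 9.16 ± 0.05 (SD, n = 3) in wildtype control, 9.24 ± 0.04 (SD, n = 4) in wildtype CR, 9.21 ± 0.08 (SD, n = 4) in knockout control and 9.20 ± 0.04 (SD, n = 4) in knockout CR muscle. All 15 arrays lay between 9.10 and 9.29. Dnaja3, the mitochondrial class A cochaperone, ranged from 7.73 to 8.19, and Dnajb5, a class B cochaperone, from 7.97 to 8.45. For these 3 genes the 95% intervals of the diet differences in both genotypes reached at most 0.322 in either direction. Dnaja2 differed by 0.08 (SE 0.06) in wildtype and -0.00 (SE 0.05) in knockout mice, Dnaja3 by 0.06 (SE 0.09) and -0.10 (SE 0.08), and Dnajb5 by -0.02 (SE 0.11) and -0.10 (SE 0.10). Dnajb6, a class B protein that suppresses aggregation and sits at the Z-disc, had a single probe set of its own. That set averaged 5.06, under the filter value of 5.32, ranged from 4.59 to 5.60 with all groups overlapping, and was not tested. A further 4 probe sets list Dnajb6 together with the pseudogene Gm4247, and 1 lists Dnaja1 with Mir207. These were outside the rule and not used. The set shared with Mir207 read 9.01 to 9.28 in knockout CR and 8.85 to 9.06 in knockout control muscle. Its knockout CR arrays were thus not lower, unlike those of the set representing Dnaja1.

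In wildtype mice the comparison of CR with control asked how the diet changes these transcripts when Sirt3 is present. Its difference is taken from none of the knockout arrays, but both comparisons share 1 fit and its estimate of the spread, and its results were also known when the family was chosen. None of the 8 tested members passed (limma, adjusted p under 0.05), where 0.0166% of all genes were called lower and 0.108% higher. At an unadjusted p under 0.05, 4 of the 8 were lower (Dnaja1, Dnaja4, Dnajb1 and Dnajb4), against 3.4% of all genes, and 0 were higher. Only Dnajb4 had CR arrays that all lay below the control arrays, as did 2.95% of all genes. The median difference over the 8 was -0.28, beside 0.04 over all genes. The high wildtype control values were on replicates 2 and 3, the arrays with the pancreatic and the germ cell markers, and wildtype control replicate 1 read lowest of the 3 for each of Dnaja1, Dnaja4, Dnajb1, Dnajb2 and Dnajb4. The part of those tissues in these levels was not tested. On knockout control replicate 1, with the germ cell markers at 3.00, Dnaja1 was the lowest of its group at 7.63 and Dnaja4 the highest at 8.92. Leaving out wildtype control replicate 1 moved the differences to -0.92 for Dnaja1, -1.90 for Dnajb1 and -0.32 for Dnajb2. Leaving out replicate 3 in its place moved them to -0.20, -0.86 and -0.0804, and 0 members passed in any of the fits without 1 array.

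**Figure D2:**
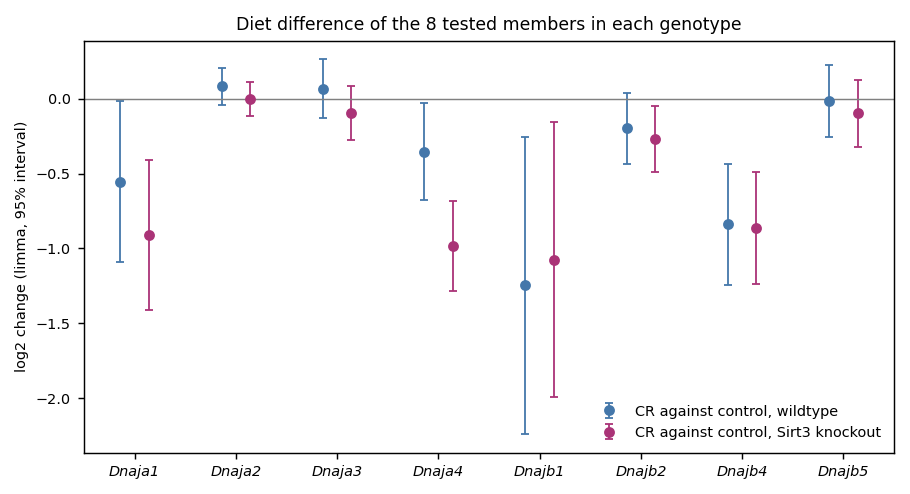
Log2 change under CR against the control diet (vertical axis) for the 8 tested members, as limma estimates with 95% intervals, in wildtype (blue) and Sirt3 knockout mice (purple). Dnajb4 had nearly the same estimate in both genotypes, -0.84 and -0.86, while those of Dnaja4 were -0.35 and -0.98, and Dnaja2, Dnaja3 and Dnajb5 lay near 0.

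In knockout mice, where the values are a description only, 1 of the 8 tested members, Dnaja4, was called lower, with 0.0581% of all genes called lower and 0.00829% higher. At an unadjusted p under 0.05, 5 members were lower, as were 5.17% of all genes. The arrays of the diets did not overlap for Dnaja1, Dnaja4, Dnajb1, Dnajb2 and Dnajb4, each lower under CR, and 3.08% of all genes had such arrays. The median difference over the 8 was -0.57, beside 0.01 over all genes. The 4 knockout CR arrays lay below the other 11 for 4 of the 8 members, and for 0.688% of all genes. Just inside and just outside that limit were Dnajb4, with a highest knockout CR value of 8.57 against a lowest other value of 8.58, and Dnajb2, with 7.04 against 6.99. For Dnaja1 both patterns were seen in the brighter probe set only, as the dimmer set overlapped. The SD of Dnajb1 was 0.0735 in knockout CR, against 1.14, 0.745 and 0.531 in wildtype control, wildtype CR and knockout control. Spread was not tested, and the knockout CR values lie just over the filter value of 5.32. In the fit without the 4 arrays 2 members were called, Dnaja1 (-0.98, limma adjusted p = 0.0258) and Dnaja4 (-0.86, adjusted p = 0.0107), while the calls over all genes went from 8 to 33. In the fit on only the knockout groups Dnajb4 was called as well, making 3 (Dnaja1 adjusted p = 0.0201, Dnajb4 adjusted p = 0.0217), with 17 calls over all genes.

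Whether the response to CR differed between the genotypes was tested as an interaction. It passed for 0 of 12056 genes in limma, so 0% were called, and for 0 of the 8 members. Dnaja4 came nearest, with a response 0.63 lower in knockout mice (difference -0.63, SE 0.21, 95% interval -1.07 to -0.19, unadjusted p = 0.00855, limma adjusted p = 0.824). It was the only member at an unadjusted p under 0.05, against 4.39% of all genes with a lower response and 5.71% in either direction. This test shares the knockout arrays by which the family was chosen. For Dnajb4 the interaction was -0.03 (SE 0.26, interval -0.58 to 0.52) and for Dnajb1 0.17 (SE 0.63, interval -1.18 to 1.52), so the arrays leave a wide range for both. Without the 4 arrays that for Dnajb1 was -1.24 (adjusted p = 0.671).

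The average over the genotypes takes an equal part of its value from the knockout comparison by which the family was chosen, so it too is a description. In it 2 of the 8 tested members, Dnajb4 and Dnaja4, were called lower, while 0.423% of all genes were called lower and 0.647% higher. At an unadjusted p under 0.05, 5 members were lower and 0 higher, against 6.4% of all genes lower and 20.1% in either direction. Dnajb4 differed by -0.85 (SE 0.13, limma adjusted p = 0.0127) and Dnaja4 by -0.67 (SE 0.10, limma adjusted p = 0.0127), which is 0.554 and 0.629 of the control signal. Both were called in all 15 fits without 1 array. Neither was called without the 4 arrays, at -0.77 (adjusted p = 0.104) and -0.47 (adjusted p = 0.151), where 5 of all genes were. Dnaja1 (-0.73, SE 0.17, adjusted p = 0.0556), Dnajb1 (-1.16, SE 0.32, adjusted p = 0.0875) and Dnajb2 (-0.24, SE 0.08, adjusted p = 0.124) did not pass. Dnaja1 passed with the filter at the 60th percentile (-0.73, adjusted p = 0.0382) and with array weights (-0.69, adjusted p = 0.0393). These values are of its brighter probe set. The dimmer set differed by -0.40 (SE 0.16, limma adjusted p = 0.198 with every probe set fitted singly). Without wildtype control replicate 1, 4 members were called: Dnaja1 at -0.92 (adjusted p = 0.00567), Dnajb1 at -1.49 (adjusted p = 0.0132), Dnaja4 and Dnajb4. Calls over all genes went from 129 to 259 in that fit.

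The genotypes were then compared within each diet. On the control diet 0 of the 8 members passed, and 0% of all genes did (limma). At an unadjusted p under 0.05, 2 members were lower in knockout muscle, Dnajb1 at -1.02 (SE 0.46, limma adjusted p = 0.694) and Dnajb4 at -0.52 (SE 0.19, limma adjusted p = 0.634), against 1.94% of all genes lower and 7.03% in either direction. No member had knockout arrays wholly below the wildtype arrays, as 1.29% of all genes had. Without the 4 arrays these differences stood at 0.37 and -0.17. Dnaja4 differed by -0.09 (SE 0.15). Under CR 0 of the 8 passed, and 0.0166% of all genes were called lower. The knockout arrays lay below all wildtype arrays for Dnaja1, Dnaja4, Dnajb1 and Dnajb4, as for 2.76% of all genes, and 3 members were lower at an unadjusted p under 0.05, against 3.34% of all genes lower and 5.92% in either direction. Dnaja4 differed by -0.72 (SE 0.14, limma adjusted p = 0.188), Dnaja1 by -0.77 (SE 0.23, adjusted p = 0.676) and Dnajb4 by -0.55 (SE 0.17, adjusted p = 0.698). For Dnaja1 these values are of the brighter probe set. The dimmer set overlapped between the genotypes under CR and differed by -0.13 (SE 0.22). Dnaja4 passed with array weights (-0.74, adjusted p = 0.0187), with both germ cell arrays left out (-0.72, adjusted p = 0.0309) and without the 4 (-0.73, adjusted p = 0.0436), where 7, 6 and 13 of all genes were called. These fits use the same knockout CR arrays by which the family was chosen and support nothing further.

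Members varied together in some pairs and not in others. Over the 15 arrays the 10 pairs among Dnaja1, Dnaja4, Dnajb1, Dnajb2 and Dnajb4 had Pearson correlations from 0.74 to 0.93, and the other 26 pairs from -0.64 to 0.33. The 5 genes were grouped after these values were seen. The arrays share 1 normalization, and the knockout CR arrays stand apart for 4 of the 5. Correlations of deviations from the group means are therefore given too. Among the 5 genes these ran from 0.29 (Dnaja4 with Dnajb4) to 0.88 (Dnaja1 with Dnajb1). In the other 26 pairs they ran from -0.87 to 0.37 (Dnaja4 with Dnajb6), so within groups the ranges overlapped. Dnaja2 ran opposite to Dnaja4 within groups, at -0.87, although all its values lie within 0.19 of each other.

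The genes most like Dnaja4 by Pearson correlation over the 15 arrays were Flnc (0.94, filamin C), Hspb1 (0.93, a small heat shock protein), Enah (0.93, an actin regulator), Lmcd1 (0.93) and Hsph1 (0.92, the Hsp110 exchange factor of Hsp70). Their Spearman correlations were 0.81 to 0.85, and Pearson values within groups were 0.64, 0.61, 0.64, 0.74 and 0.77 in that order. Those most like Dnajb1 were Dnaja1 (0.93), Hsp90aa1 (0.92, the inducible cytosolic Hsp90), Nle1 (0.88), Bag3 (0.88, an Hsp70 exchange factor of the Z-disc) and Tnpo1 (0.87, a nuclear import receptor). Their values within groups were 0.88, 0.82, 0.92, 0.75 and 0.71. The 2 arrays farthest from the Dnajb1 median were wildtype control replicates 2 and 3. Without them the Pearson correlations of levels, not of deviations from the group means, were 0.75 to 0.90. Hspa1a, the inducible Hsp70, read 8.97, 10.37 and 10.94 in wildtype control and 6.82 on knockout control replicate 1, against 9.09 to 10.04 on the other 3 knockout control arrays. Under CR it read 7.25, 7.82, 9.56 and 9.34 in wildtype and 6.62 to 7.53 in knockout muscle.

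**Figure D3:**
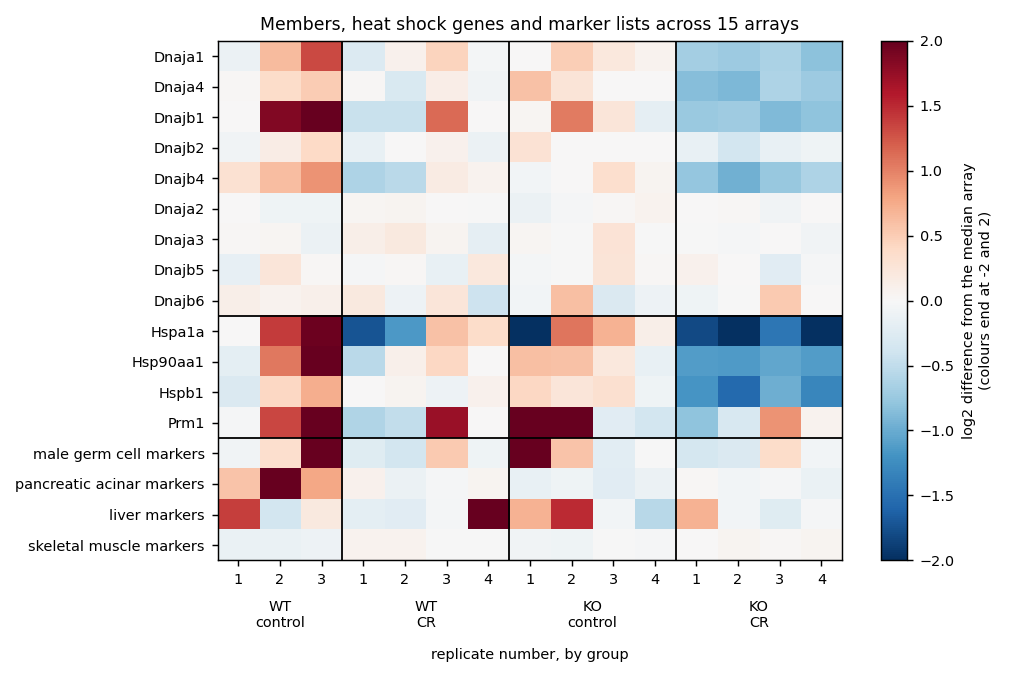
Log2 difference from the median array (colour, ending at -2 and 2) for the 9 members, for Hspa1a, Hsp90aa1, Hspb1 and the sperm protein gene Prm1, and for the means of 4 marker lists, with 1 column per array (replicate number, by group). The knockout CR columns are blue for Dnaja1, Dnaja4, Dnajb1 and Dnajb4, the wildtype control columns 2 and 3 are red for Dnajb1, and the germ cell markers stand out on replicate 3 of wildtype control and replicate 1 of knockout control.

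The partners of these cochaperones were set beside them from lists also chosen with earlier results known. Averaged over genotypes, with 0.423% of all genes called lower, 1 of 14 tested HSP70 and HSP110 genes was called lower under CR, Hspa4 (log2 difference -0.30, SE 0.06, limma adjusted p = 0.0313), an Hsp110-type exchange factor. Of 13 exchange factors and adaptors it was 1, Bag3 (-0.63, SE 0.13, limma adjusted p = 0.0348). Of 12 HSP90 genes it was 1, Hsp90aa1 (-1.19, SE 0.25, limma adjusted p = 0.0461), and of 8 small heat shock genes 1, Hspb1 (-0.87, SE 0.13, limma adjusted p = 0.0127). In these 4 lists 0 were called higher. Without the 4 arrays with markers of other tissues 5 of all genes were called in this contrast, and Hsp90aa1 was highest on 2 of those arrays, at 9.36 and 10.30 on wildtype control replicates 2 and 3. The median differences of the 4 lists were -0.29, -0.04, -0.10 and -0.19. Those over the 8 DNAJA and DNAJB members and over all genes were -0.45 and 0.03. The HSP70 and HSP110 list shares Hspa1l (-0.86) with the male germ cell markers, and both germ cell arrays were on the control diet. The part of germ cells in that median was not tested. For the small heat shock genes the average joins unlike values, with medians of 0.03 in wildtype and -0.37 in knockout mice. Hspb1 differed by -0.28 in wildtype and -1.47 in knockout mice. In the interaction 4 of these 8 genes were lower at an unadjusted p under 0.05 (limma), against 4.39% of all genes, and 0 passed. The factors Hsf2 (-0.17, SE 0.09) and Hsf4 (0.08, SE 0.08) did not pass. Hsf1, the gene of HSF1, had no probe set listing it alone and was not tested. The other J-domain genes had medians of -0.12 over 6 tested DNAJB genes outside the 9 and -0.00 over 27 DNAJC genes, with 0 called in either list.

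**Figure D4:**
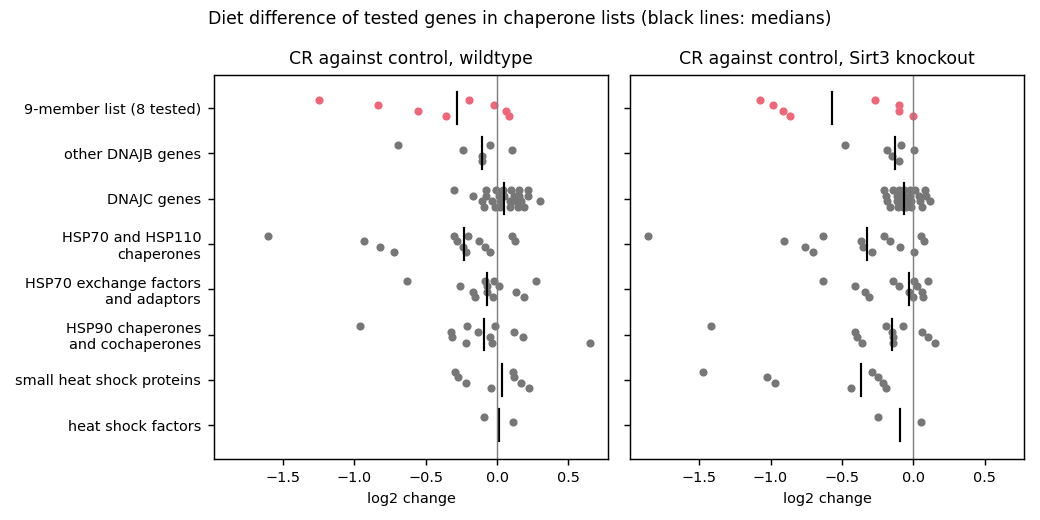
Log2 change under CR (horizontal axis) of every tested gene in the 9-member list (red) and in 7 lists of other J-domain, chaperone and heat shock factor genes (grey), in wildtype (left) and Sirt3 knockout mice (right), with black lines at the medians. The DNAJC medians lie at 0.05 and -0.07. In knockout mice, the comparison by which the family was chosen, 5 of the 8 tested members lie left of the DNAJC genes. So do genes of other lists, among them Hspa1a (-1.86), Hspb1 (-1.47) and Hsp90aa1 (-1.42).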

How the data were processed

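The deposited table held log2 intensities of 35556 probe sets on 15 arrays, made by the authors with RMA per the submitters' processing notes (no version named). No scan or hybridisation batch is given, so none was tested, and the number of arrays limits the precision. The deposited log2 values were used as they stand. Gene symbols came from GEO's annotation of the platform (21789 with 1 symbol, 1621 with several, 12146 not listed and unnamed here). Each gene was represented by its probe set with the highest mean, and genes below the 40th percentile of listed probe sets, 5.32, were removed, leaving 12056 (8 of the 9 members). A linear model of 4 group means over all arrays (limma 3.58.1, R 4.3.3) gave 6 two-sided contrasts, with Benjamini-Hochberg adjustment over all genes and a threshold of 0.05. Errors of differences are moderated standard errors. The fit was tested on simulated data. The members, lists, tests and alternatives were chosen with earlier results of these data known. All 9 members were named, with the 5 genes most correlated with Dnaja4 and with Dnajb1 and, of each list, the genes past the threshold or else the 2 with the smallest p. Hspa1a, Prm1 and the grouping of 5 members were chosen after their values were seen. The study calls its arrays biological replicates with 1 mouse each. Figures were drawn with matplotlib 3.10.9.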

Additional observations from a re-analysis of the deposited data

Results flagged for a closer look

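In 30 groups of 4 arrays (10 probe sets in 3 groups), 2 held an array far from the rest, where chance flags about 1 in 20. Dnajb2 read 7.42 on knockout control replicate 1, a germ cell array, against a next highest 7.15 in that group. Dnajb6 read 5.53 on knockout CR replicate 3, against a next highest 5.00, with its probe set below the filter value.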

How the results depend on the processing

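Over 48 member differences and all settings tried, 1219 of 1280 values kept their direction and side of the threshold. Of the rest, 43 changed direction, 7 lost the call and 11 gained it. Many values could not change direction, since another filter or prior, or leaving out an array of a group not compared, returns the same difference. Most differences were also uncalled in the main fit. The counts therefore do not measure how stable the differences are. The number of members called for CR in wildtype mice, for the interaction and for the genotypes on the control diet was 0 in every setting. For CR in knockout mice it was 1, and 0 with quantile normalization, 3 with only the groups compared, 2 with the replicate block and 2 without the 4 arrays chosen after seeing the data. Without 1 array it was 0 to 1. Averaged over genotypes it was 2, and 3 with the filter at the 60th percentile and with array weights, 0 without the 4 arrays, and 2 to 4 without 1 array. For the genotypes under CR it was 0, and 1 with array weights, without the 2 and without the 4 arrays. The arrays' numbers are not stated to mark a shared litter or day, and deviations of same-numbered arrays correlated from -0.64 to 0.50 over 14 pairs, so they were not taken as pairs. The block raised Dnajb4 in knockout mice past the threshold (-0.86, adjusted p = 0.0319).

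Directions that changed were of uncalled differences, and the cause was not tested. Without the 4 arrays, which leaves 1 wildtype control array, CR in wildtype stood at 0.21 for Dnaja1, 0.08 for Dnajb1, 0.0567 for Dnajb2 and 0.12 for Dnajb5. In the same fit knockout against wildtype on the control diet stood at 0.38 for Dnaja1, 0.0584 for Dnaja4, 0.37 for Dnajb1 and 0.0866 for Dnajb2, Dnajb5 under CR at 0.0094, Dnaja2 averaged at -0.0014 and the Dnajb1 interaction at -1.24. Without the 2 germ cell arrays the Dnajb1 interaction was -0.29 and Dnaja1 on the control diet 0.0031. With array weights that interaction was -0.0674, and Dnajb5 on the control diet -0.0026. With quantile normalization Dnaja2 in knockout mice was 0.0196, the Dnajb4 interaction 0.0407 and Dnaja3 averaged 0.0018. With the replicate block the Dnajb4 interaction was 0.0199 and Dnaja3 averaged 0.0036.

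Without 1 array at a time, Dnajb5 ranged from -0.12 to 0.0896 and Dnaja2 from -0.0375 to 0.0245 for CR in wildtype and in knockout mice respectively. Interactions ranged from -0.71 to 0.0095 for Dnaja1, -0.21 to 0.83 for Dnajb1, -0.19 to 0.0437 for Dnajb2, -0.17 to 0.12 for Dnajb4 and -0.19 to 0.0206 for Dnajb5. Dnaja3 averaged ranged from -0.0412 to 0.0225. Knockout against wildtype on the control diet ranged from -0.23 to 0.0133 for Dnaja4, -0.19 to 0.0453 for Dnajb2 and -0.0748 to 0.13 for Dnajb5, and Dnajb5 under CR from -0.11 to 0.0094.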

Other observations

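Among the 27 tested DNAJC genes 0 passed in any of the 6 contrasts (limma), and at an unadjusted p under 0.05 there were 7 for CR in wildtype mice, 1 of them lower, where 13.1% of all genes were at that p and 3.4% lower. Of these Dnajc24 (0.30, SE 0.10, limma adjusted p = 0.207) and Dnajc25 (0.22, SE 0.07, limma adjusted p = 0.213) had the smallest p. In knockout mice 2 were at an unadjusted p under 0.05, both lower, where 12% of all genes were and 5.17% lower. These were Dnajc13 (-0.20, SE 0.09, limma adjusted p = 0.377) and Hscb (-0.19, SE 0.09, limma adjusted p = 0.410), the latter a cochaperone of mitochondrial iron-sulfur cluster assembly. Among the 6 tested DNAJB genes outside the 9, Dnajb9, an endoplasmic reticulum cochaperone, differed by -0.18 (SE 0.08, limma adjusted p = 0.405) under CR in knockout mice and was the only one at an unadjusted p under 0.05 in that contrast.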
